A study of Mus musculus with 64 samples.

Results

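The FOS and JUN family encodes most of the transcription factor AP-1. Its members were taken as the rows of the deposited table with the symbols Fos, Fosb, Fosl1, Fosl2, Jun, Junb, Jund and Atf3, and all 8 of 23134 genes were found and passed the filter on low counts. RNA was sequenced from CD4 T cells that had been taken from the spleens of C57BL/6J mice of 4 genotypes. Control cells (WT) carried the Cd4-Cre-ERt2 recombinase alone. DKO cells carried Rc3h1/2 fl/fl with the same recombinase and so could lose Roquin-1 and Roquin-2. KO cells carried Zc3h12a fl/fl with the recombinase and could lose Regnase-1, and TKO cells carried both sets of floxed alleles. Deletion was induced in vitro with 4′-OH-tamoxifen in cells that express Cd4-driven Cre-ERt2. The cells were then activated through CD3 and CD28 under Th1 conditions for 40 h and kept for 2 days in medium with IL-2. They were taken without restimulation (0 h) or after 1, 2 or 4 h of restimulation through CD3 and CD28. There were 16 groups of 4 libraries, 64 libraries in total. The labels do not say whether the 4 came from separate animals or cultures, so a p-value reflects only how far these libraries differed, which may be technical spread.

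FOS proteins (Fos, Fosb, Fosl1, Fosl2) cannot bind DNA as pairs of their own kind and work as heterodimers with JUN proteins (Jun, Junb, Jund), which also pair among themselves. Atf3 is a related leucine zipper factor that can pair with JUN proteins and often acts as a repressor. In T cells, receptor signals through MAP kinases switch several of these genes on within minutes, AP-1 acts together with NFAT at cytokine genes, and many of the mRNAs are unstable because of AU-rich elements. Roquin and Regnase-1 are RNA-binding proteins that repress mRNAs of T cell activation, and the series title names their cooperation. The comparisons ask how the family was set in each genotype before and during restimulation.

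The recovered depth was 5369873 to 11666603 reads per library with a median of 7720298. Levels below are the deposited normalised read counts after a further rescaling of the libraries, given per library in the order of the deposited lists or as mean ± SD (n = 4). Log2 changes are from limma on log2(normalised count + 1) over all 64 libraries, given ± SE with a Benjamini-Hochberg adjusted p over 16140 genes, and a gene is called at an adjusted p under 0.05. Whole-gene levels checked the labels only in part, because a floxed deletion removes some exons. At 2 h, Rc3h1 was 706.2 to 801.6 in DKO and 717.9 to 855.7 in TKO cells, below the WT range of 1202 to 1648, whereas at 0 h the ranges overlapped. Zc3h12a at 1 h was 1045 ± 136 in WT, 641 ± 130 in KO and 548 ± 43.0 in TKO cells, without overlap with WT. At 0 h its mean was higher in KO (122 ± 30.0) and TKO cells (148 ± 43.4) than in WT cells (95.2 ± 10.5), with overlap. The KO and TKO ranges overlapped WT again at 4 h, and at 2 h only TKO cells lay below WT in every library. In DKO cells Zc3h12a lay above WT without overlap at 0 h (330 ± 25.5) and at 4 h (375 ± 56.0, beside 166 ± 29.3 in WT). Rc3h2 had no lower mean than WT in any knockout at any time. CD4 T cell markers summed to 3660 to 8826 normalised counts in every library, whereas markers of NK cells, neutrophils and erythroid cells reached at most 31.3. B cell markers summed to 122.7 to 4700, myeloid markers to 254 to 742.3, CD8 T cell markers to 31.5 to 473.4 and dendritic cell markers to 8.73 to 151.7. In these bulk samples, fewer cells of a type and less RNA per cell cannot be told apart.

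The transcription start regions of 4 members are shown, chosen by their sequence matches and not by their time course. Fos, Junb and Atf3, with Fosb, hold TGACG, the core of the cAMP response element that CREB and ATF proteins bind. Jun holds the related TGACATCA, known to be bound by JUN and ATF2. The windows of Fosl2 and Jund held neither match. A link between the matches and the time course was not tested. Each region shown runs 5′ to 3′ from 250 bases before to 50 bases after the RefSeq start (GRCm38.p6), with these matches in capitals.
Fos, chr12:85473640-85473939, plus strand: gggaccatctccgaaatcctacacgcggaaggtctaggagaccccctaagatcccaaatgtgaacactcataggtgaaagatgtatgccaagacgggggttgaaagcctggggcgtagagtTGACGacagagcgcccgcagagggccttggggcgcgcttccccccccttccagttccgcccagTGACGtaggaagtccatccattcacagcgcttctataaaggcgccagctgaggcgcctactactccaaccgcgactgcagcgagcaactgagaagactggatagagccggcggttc
Junb, chr8:84978699-84978998, minus strand: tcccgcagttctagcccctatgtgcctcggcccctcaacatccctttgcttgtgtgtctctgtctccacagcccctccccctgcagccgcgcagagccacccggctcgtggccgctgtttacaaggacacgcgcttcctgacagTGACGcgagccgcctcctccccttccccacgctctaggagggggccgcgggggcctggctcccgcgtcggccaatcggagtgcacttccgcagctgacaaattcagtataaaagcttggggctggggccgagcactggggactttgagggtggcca
Atf3, chr1:191183284-191183583, minus strand: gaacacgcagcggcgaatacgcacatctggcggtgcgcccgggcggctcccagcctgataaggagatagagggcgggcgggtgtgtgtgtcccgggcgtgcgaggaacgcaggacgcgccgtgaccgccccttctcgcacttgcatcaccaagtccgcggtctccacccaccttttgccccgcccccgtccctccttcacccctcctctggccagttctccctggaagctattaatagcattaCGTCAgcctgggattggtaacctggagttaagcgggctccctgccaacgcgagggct
Jun, chr4:95052173-95052472, minus strand: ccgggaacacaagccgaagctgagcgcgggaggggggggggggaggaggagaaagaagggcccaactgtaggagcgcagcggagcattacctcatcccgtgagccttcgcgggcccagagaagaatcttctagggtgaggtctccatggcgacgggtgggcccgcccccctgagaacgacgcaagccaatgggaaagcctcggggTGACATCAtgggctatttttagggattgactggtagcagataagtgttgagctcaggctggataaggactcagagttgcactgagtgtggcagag
The Fos and Jun starts are those of the GENCODE gene models, the Junb start lies 30 bases from it and the Atf3 start is an internal one 34706 bases from the outermost. The Fosb, Fosl2 and Jund starts lie 6, 671 and 1210 bases from the GENCODE starts. Sites outside the windows were not searched, so an absence below refers to the bases of the windows alone. The RefSeq table matched 7 of 8 members, and Fosl1 had no entry. On either strand, TGACG was found in 4 of these 7 windows (Fos at positions -129 and -66, Fosb at -60, Junb at -106, and Atf3 at -7 on the minus strand, where it reads CGTCA above) and in 20.8% of 32851 start windows of the same length. TGACATCA was found in Jun at position -45 and in 3.62% of all windows. The full palindrome TGACGTCA, of which TGACG is a part, was in none of the 7 (1.79% of all windows), nor was TGACTCA, the usual AP-1 site (5.2%), or a CArG box, the site of serum response factor (1.63%). TATAAA stood at -33 in Fos and at 1 in Junb, against 13.6% of all windows.

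AU-rich elements in the 3′ UTR are bound by the Zfp36 family and shorten mRNA life. For each gene, the coding transcript with the longest 3′ UTR was used. The pentamer ATTTA was present in all 8 members, with 8 copies in Fosl2, 4 each in Fos and Jun, 3 in Atf3, 2 in Junb and 1 each in Fosb, Fosl1 and Jund. It was present in 65.2% of 21039 genes of the GENCODE annotation. The longer TTATTTATT, which overlaps the pentamer, was found in 2 members and in 7.66% of genes. These 2 members were Fos and Fosl2. A link between the site and the time course was not tested. Both sites are in capitals with their flanks.
Fos: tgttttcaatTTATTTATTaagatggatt
Fosl2: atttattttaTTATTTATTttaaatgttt
TTCNNNGAA, a loose form of the hairpin bases of the constitutive decay element that Roquin binds, was found in the 3′ UTRs of Fos, Fosb and Fosl2 (3 of 8) and in 33.9% of genes. A match of letters is not evidence of a site in use.

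In WT cells, every member was called higher at 1 h than at 0 h, where 31.1% of all genes were called in either direction. Fos and Fosb peaked for a short time, Junb, Fosl2, Atf3 and Jun were high at both 1 and 2 h, Fosl1 rose later and stayed up, and Jund moved least. At 2 h, again all 8 were called higher than at 0 h (52.0% of all genes called), and at 4 h 3 were (51.7%). From 1 to 2 h, 2 were called lower and 1 higher (35.5%), and from 2 to 4 h, 7 were called lower (28.4%). The median log2 change of the members was 4.47 at 1 h, 3.12 at 2 h and 0.29 at 4 h, beside -0.10, -0.16 and 0.01 over all genes tested.

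**Figure D1:**
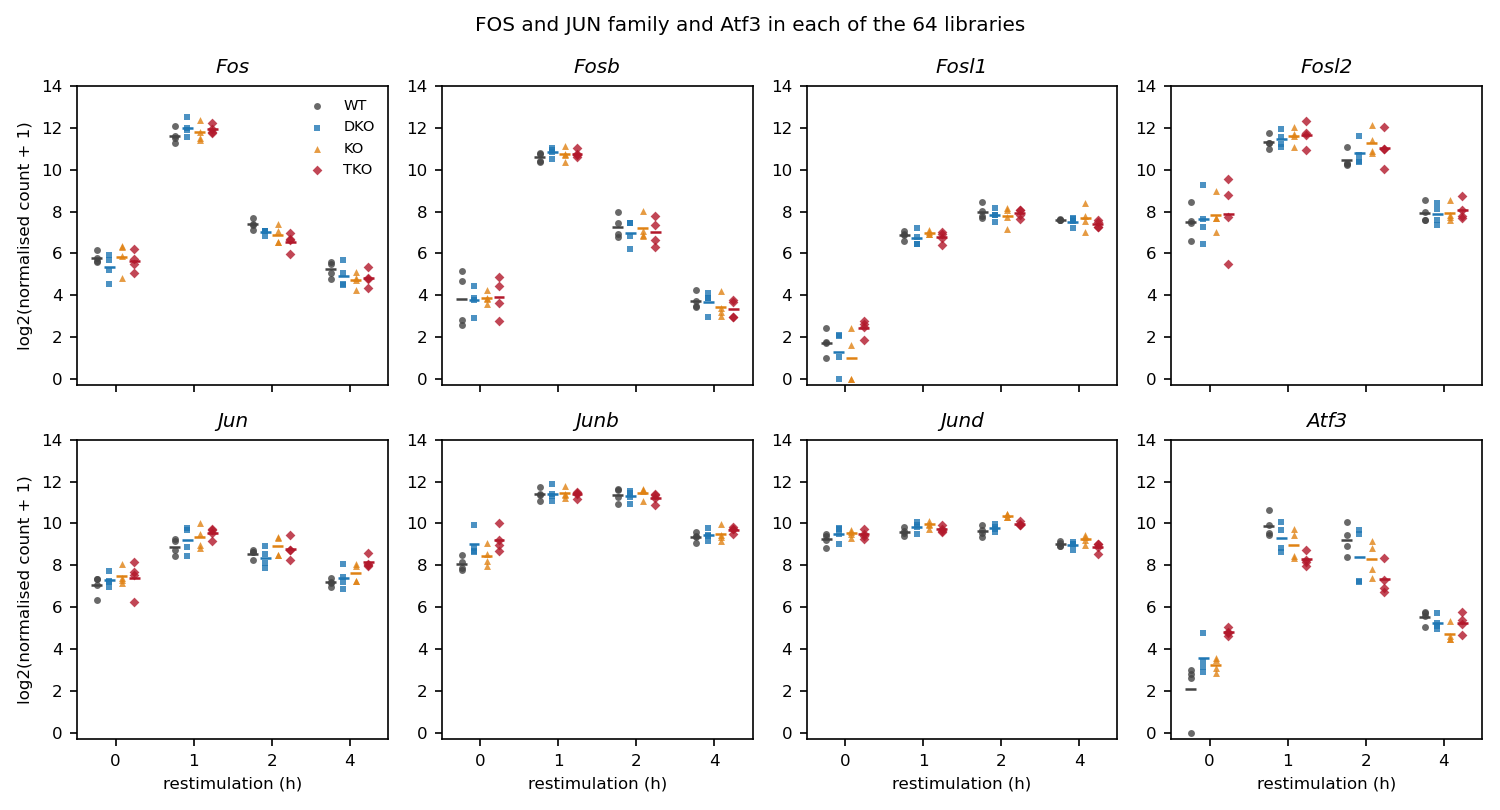
Level of each member as log2(normalised count + 1) on the y axis against restimulation time on the x axis. Each point is 1 library and each short bar the mean of 4 libraries in WT, DKO, KO or TKO cells; Fos and Fosb peak at 1 h, Fosl1 stays up to 4 h, Jund is nearly flat, and Atf3 in TKO cells lies above WT at 0 h and below it at 1 and 2 h.

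Positions of the genes are from GENCODE on GRCm38. Fos (ENSMUSG00000021250, chr12:85473890-85477273, plus strand), the classic immediate early partner of JUN, stood at 53.8, 48.0, 49.3 and 70.2 normalised counts at 0 h in WT cells. It reached 4362, 3099, 2481 and 2915 at 1 h. It was back at 139, 163, 207 and 168 at 2 h and at 33.1, 47.6, 44.1 and 26.1 at 4 h. The 0, 1 and 2 h groups did not overlap. The log2 change was 5.82 ± 0.29 at 1 h (56.5-fold, adjusted p = 6.73e-24, limma), 1.60 ± 0.29 at 2 h (adjusted p = 4.08e-06, limma), and from 1 to 2 h it fell by 4.22 ± 0.29 (adjusted p = 2.98e-17, limma). At 4 h, all values lay just under those of 0 h, and the change of -0.56 ± 0.29 was not called (adjusted p = 0.102, limma).

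Fosb (ENSMUSG00000003545, chr7:19302696-19310051, minus strand), a close relative of Fos, also peaked at 1 h. It stood at 5.97, 24.6, 34.3 and 5.09 normalised counts at 0 h, and at 1734, 1810, 1306 and 1361 at 1 h. At 2 h it stood at 119, 174, 249 and 110. All 1 h values lay above all 2 h values, which lay above all 0 h values. It rose by 6.78 ± 0.40 on the log2 scale at 1 h (adjusted p = 2.06e-20, limma) and fell by 3.31 ± 0.40 from 1 to 2 h (adjusted p = 2.07e-09, limma) and by a further 3.55 ± 0.40 to 4 h (adjusted p = 3.38e-10, limma), when it was 12.6 ± 3.9.

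Fosl1 (ENSMUSG00000024912, chr19:5447547-5455946, plus strand) encodes FRA-1, which lacks the strong activation domain of FOS and is known as a later member. It was near 0 before restimulation, at 2.39, 2.34, 4.48 and 1.02 normalised counts from 8 reads in all. It stood at 134, 121, 118 and 96.8 at 1 h, at 208, 262, 350 and 223 at 2 h, and at 190, 193, 198 and 190 at 4 h. It was the only member called higher at 2 h than at 1 h in WT cells, by 1.12 ± 0.34 on the log2 scale (adjusted p = 0.00737, limma), and the only one not called lower from 2 to 4 h. At 4 h it was still 5.86 ± 0.34 above 0 h on the log2 scale (adjusted p = 1.64e-21, limma). With so few reads at 0 h, the size of this change depends on the pseudocount of 1. Ccdc85b overlaps Fosl1 on the opposite strand and had 4.38% as many reads over all 64 libraries together. Its share at 0 h, where Fosl1 was near 0, may be much larger and was not computed.

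Fosl2 (ENSMUSG00000029135, chr5:32135801-32157842, plus strand) encodes FRA-2. Its values were 173, 187, 95.5 and 356 normalised counts at 0 h, and 2443, 3484, 2479 and 2021 at 1 h. At 2 h they were 1274, 1239, 1185 and 2183, and at 4 h 192, 255, 379 and 195. All values of 1 and 2 h lay above those of 0 and 4 h, and the ranges of 1 and 2 h overlapped. The log2 change was 3.80 ± 0.52 at 1 h (adjusted p = 4.56e-08, limma) and 2.96 ± 0.52 at 2 h (adjusted p = 3.34e-06, limma), the widest errors in the family.

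Jun (ENSMUSG00000052684, chr4:95049034-95052222, minus strand), the founding JUN protein, changed less than the FOS genes. It stood at 164, 133, 80.6 and 164 normalised counts at 0 h, at 602, 577, 343 and 424 at 1 h, and at 302, 395, 402 and 423 at 2 h. All values of 1 and 2 h exceeded those of 0 h. The log2 change was 1.86 ± 0.32 at 1 h (adjusted p = 3.73e-06, limma) and 1.53 ± 0.32 at 2 h (adjusted p = 4.38e-05, limma), and Jun fell by 1.38 ± 0.32 from 2 to 4 h (adjusted p = 0.000511, limma). Junos, on the opposite strand, had 11.4% as many reads as Jun over all 64 libraries together. It cannot be told apart from Jun where the strand of counting is not given.

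Junb (ENSMUSG00000052837, chr8:84974484-84978718, minus strand) encodes a JUN protein that pairs with BATF in effector T cells. Its values were 220, 233, 281 and 363 normalised counts at 0 h, and 3421, 2598, 2145 and 2753 at 1 h. They were 1961, 3073, 3253 and 2416 at 2 h. At 4 h they had dropped to 658, 543, 664 and 769. The 1 and 2 h values overlapped each other, and the 4 h values lay below them and above all 0 h values. It rose by 3.32 ± 0.23 on the log2 scale at 1 h (adjusted p = 1.87e-17, limma) and by 3.28 ± 0.23 at 2 h (adjusted p = 8.83e-18, limma), and was still 1.28 ± 0.23 higher at 4 h (adjusted p = 5.39e-06, limma). Prdx2 overlaps Junb on the opposite strand and had 20.2% as many reads over all 64 libraries together. Its share at 0 h, where Junb was lowest, may be larger and was not computed, and the strand of counting is not given.

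Jund (ENSMUSG00000071076, chr8:70698949-70700616, plus strand), the JUN protein known for steady expression in resting cells, moved least. It stood at 720, 599, 676 and 454 normalised counts at 0 h, at 902, 665, 793 and 744 at 1 h, and at 737, 824, 986 and 655 at 2 h. These ranges overlapped. The log2 change of 0.35 ± 0.14 at 1 h (adjusted p = 0.0466, limma) lost its call under 6 of 12 other settings and without any of 5 of the 8 libraries (WT at 0 h libraries 2 and 4, at 1 h libraries 1, 3 and 4), where the adjusted p went up to 0.581. That of 0.39 ± 0.14 at 2 h (adjusted p = 0.0157, limma) lost it under 3 settings and without WT library 4 at 0 h or library 3 at 2 h. From 2 to 4 h, Jund fell by 0.61 ± 0.14 (adjusted p = 0.000502, limma), with no overlap between groups, but not under scaling by total reads (adjusted p = 0.161).

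Atf3 (ENSMUSG00000026628, chr1:191170296-191218039, minus strand) had the largest change among the members at 1 h. It was nearly silent at 0 h, at 5.97, 7.02, 0 and 5.09 normalised counts from 16 reads. It reached 984, 1572, 748 and 701 at 1 h and 339, 486, 690 and 1074 at 2 h. At 4 h it stood at 31.9, 47.6, 51.7 and 53.2, above all values of 0 h. The log2 change was 7.79 ± 0.50 at 1 h (adjusted p = 1.01e-18, limma), 7.11 ± 0.50 at 2 h (adjusted p = 9.77e-18, limma) and 3.43 ± 0.50 at 4 h (adjusted p = 5.27e-08, limma), and its size depends on the few reads at 0 h. Gm24748 overlaps Atf3 on the opposite strand and was not analysed here.

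Levels of different genes were compared as the mean normalised count per kb of the longest coding transcript. In resting WT cells Jund led with 367 per kb, followed by Junb with 152, and all others were at or below 42.4. At 1 h, Fos (1525 per kb) and Junb (1509 per kb) led, ahead of Atf3 with 505 and Jund with 465. At 2 h Junb stood alone at 1479 per kb, with Jund at 480 next, while Fos had dropped to 80.3. At 4 h, Junb (364 per kb) and Jund (312 per kb) led again, and Fosl1 was the highest of the FOS genes with 103. Among the JUN genes the leading mRNA thus passed from Jund at 0 h to Junb. Among the FOS genes it passed from Fos at 1 h to Fosl2 at 2 h (225 per kb) and to Fosl1 at 4 h.

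**Figure D2:**
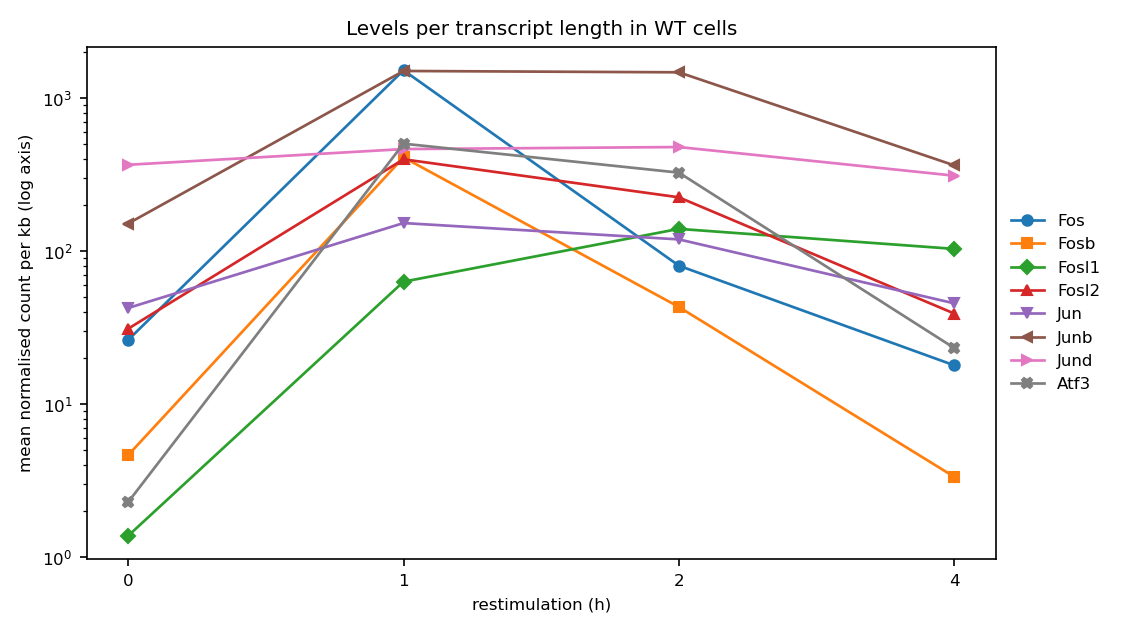
Mean normalised count per kb of transcript (log axis) against restimulation time in WT cells, 1 line per member, each point the mean of 4 libraries. Jund leads at 0 h, Fos and Junb share the top at 1 h, and Junb leads at 2 and 4 h.

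In the knockouts, most members also rose with restimulation. Against 0 h, the members called higher at 1 h numbered 7 of 8 in DKO, 8 in KO and 7 in TKO cells, beside 31.9%, 29.2% and 22.3% of all genes called in either direction. At 2 h they numbered 7, 8 and 8 (55.1%, 58.0% and 47.3% of all genes), the exception in each count of 7 being Jund. At 4 h, 2, 3 and 2 were higher and 1, 1 and 2 lower (55.1%, 60.5% and 50.3% of all genes). Fos at 1 h reached 4211 ± 1229 normalised counts in DKO, 3682 ± 1199 in KO and 3957 ± 600 in TKO cells, beside 3214 ± 808 in WT. Fosb at 1 h was 1838 ± 286, 1740 ± 383 and 1749 ± 237, beside 1553 ± 256 in WT. These groups overlapped, and neither gene was called between a knockout and WT at 1 h. By 4 h, Fos lay under its 0 h level in KO cells (26.3 ± 6.4 against 60.5 ± 24.5 normalised counts), a log2 change of -1.09 ± 0.29 with overlapping groups (adjusted p = 0.00103, limma). The Fos mean was also lower at 4 h than at 0 h in the other genotypes. It was 28.4 against 50.8 in TKO, 31.6 against 42.1 in DKO and 37.7 against 55.3 normalised counts in WT cells.

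Fosl1 at 4 h and Jun at 1 h were not called between any knockout and WT. Fosl1 at 4 h was 184 ± 26.1 normalised counts in DKO, 221 ± 89.8 in KO and 169 ± 22.2 in TKO cells, beside 193 ± 3.7 in WT. Its change from 0 h at 4 h was called in every genotype, with log2 values of 6.22 in DKO, 6.70 in KO and 4.97 in TKO cells, and rests on 6 to 15 reads at 0 h. Jun at 1 h was 627 ± 258 in DKO, 682 ± 270 in KO and 744 ± 124 in TKO cells, beside 487 ± 124 in WT, with overlap of each knockout with WT. Jund was lower at 4 h than at 0 h in DKO cells (-0.55 ± 0.14) and TKO cells (-0.60 ± 0.14). Junb was still higher at 4 h than at 0 h in KO cells, by 1.04 ± 0.23. In DKO and TKO cells, where its resting level was higher, that change was 0.43 and 0.48 and not called. Atf3 at 4 h was higher than at 0 h in DKO and KO cells, by 1.70 and 1.49, and both calls were lost by limma voom. In TKO cells it was higher by 0.45 and not called.

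Against WT cells, 9 of 96 member comparisons were called, 7 of them in TKO cells, 1 in DKO and 1 in KO cells. The comparisons of the 3 knockouts share the WT libraries. In DKO cells 7.61%, 8.2%, 9.47% and 5.37% of all genes were called at 0, 1, 2 and 4 h, in KO cells 1.34%, 2.16%, 5.93% and 33.1%, and in TKO cells 37.2%, 31.5%, 36.5% and 43.7%. In TKO cells the members' counts of 2, 1, 3 and 1 of 8 were thus near or below the share of all genes. Fosb, Fosl1 and Fosl2 were not called against WT in any knockout at any time. The log2 changes of Fosl2 ranged from -0.07 (DKO, 4 h) to 0.83 (KO, 2 h) with an SE of 0.52, so changes of that size were not detectable for it.

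**Figure D3:**
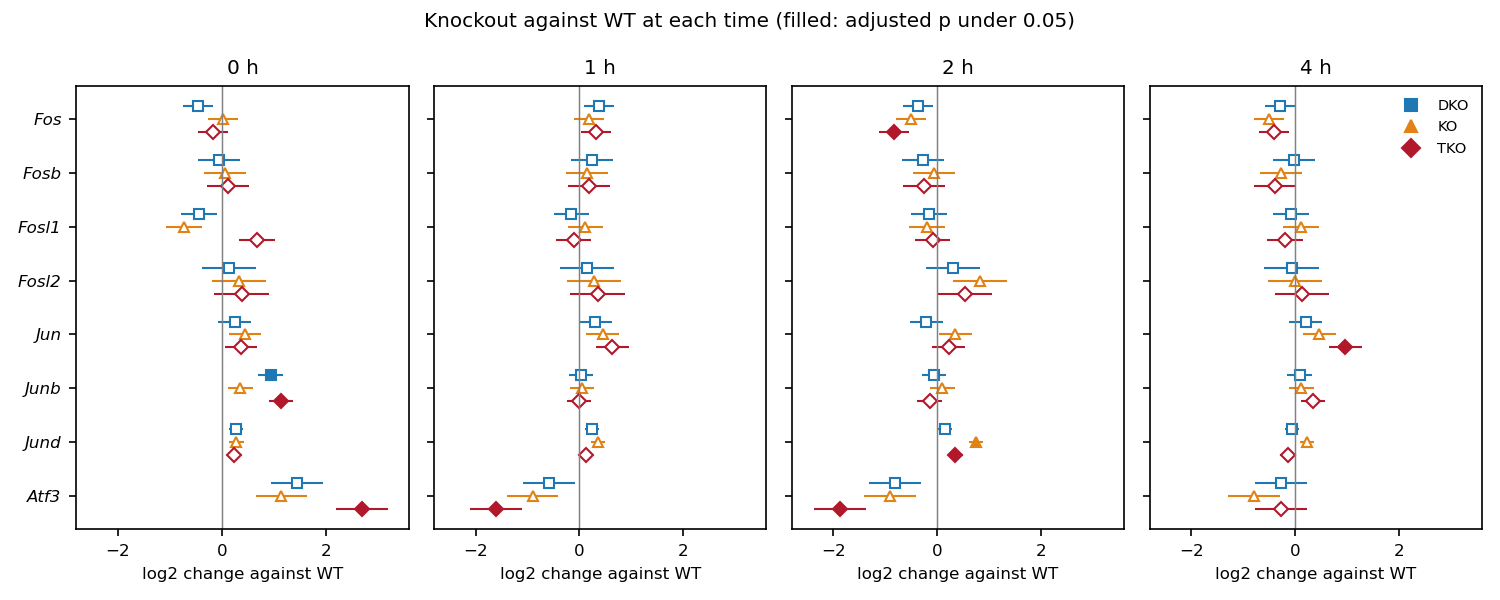
Log2 change against WT (x axis) for each member (rows) at 0, 1, 2 and 4 h, in DKO, KO and TKO cells, with bars of 1 SE; filled symbols have an adjusted p under 0.05. Atf3 in TKO cells is to the right at 0 h (2.71) and to the left at 1 and 2 h (-1.61 and -1.87), and Junb is to the right at 0 h in DKO and TKO cells.

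Junb was higher before restimulation in DKO and TKO cells. At 0 h it stood at 449, 402, 972 and 407 normalised counts in DKO cells and at 496, 1051, 599 and 404 in TKO cells. In KO cells it stood at 369, 540, 290 and 246, and in WT cells the highest of the 4 was 363. Every DKO and TKO library exceeded every WT library, while KO and WT overlapped. Whether reads of Prdx2, on the opposite strand, enter these resting levels was not tested. The log2 change was 1.15 ± 0.23 in TKO cells (2.21-fold, adjusted p = 0.000139, limma) and kept its call under all 12 other settings and without each of the 8 libraries. With DKO library 3 and TKO library 2, the highest of their groups, both left out, it was 0.87 (adjusted p = 0.000952). In DKO cells it was 0.94 ± 0.23 (adjusted p = 0.00632, limma), which fell to 0.64 ± 0.23 without DKO library 3 (adjusted p = 0.118) and lost its call with only the 2 groups fitted. In KO cells the change was 0.36 ± 0.23 and not called, and DKO and KO cells were not called against each other (0.58 ± 0.23, adjusted p = 0.305, limma). From 1 h on, Junb was not called in any knockout, with log2 changes from -0.15 to 0.34.

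Atf3 in TKO cells was high at rest and low after restimulation. At 0 h it stood at 23.5, 32.0, 27.5 and 25.9 normalised counts in TKO cells, from 89 reads, all above the WT values of 0 to 7.02. At 1 h it reached only 253, 288, 421 and 306 in TKO cells, where the lowest WT library had 701. At 2 h it was 121, 159, 105 and 329, all below the lowest WT value of 339. At 4 h it was 38.6 ± 12.1, beside 46.1 ± 9.8 in WT, with overlap. The log2 changes against WT were 2.71 ± 0.50 at 0 h (adjusted p = 3.39e-05, limma), -1.61 ± 0.50 at 1 h (adjusted p = 0.0115, limma) and -1.87 ± 0.50 at 2 h (adjusted p = 0.00257, limma). The change at 0 h was 2.01 without the WT library that had no Atf3 read (adjusted p = 0.000706), and was not called by limma voom on the recovered reads (2.76 ± 1.5, adjusted p = 0.142). The change at 1 h lost its call without WT library 2, at an adjusted p of 0.055, and that at 2 h was called in every setting.

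In DKO and KO cells, Atf3 lay between WT and TKO cells in mean level at 0, 1 and 2 h, without being called. At 0 h it stood at 9.72, 7.77, 26.5 and 6.37 normalised counts in DKO cells and at 10.1, 10.9, 7.60 and 6.23 in KO cells. At 1 h it stood at 815, 1069, 458 and 399 in DKO and at 856, 690, 322 and 346 in KO cells. Both ranges overlapped WT at 1 h, and at 0 h the KO range overlapped WT and lay below that of TKO cells. In DKO cells the log2 changes against WT were 1.45, -0.59 and -0.81 at these times, and in KO cells 1.15, -0.90 and -0.92, each with an SE of 0.50. The DKO change at 0 h had an adjusted p of 0.0633 (limma) and was called with the deposited scaling (adjusted p = 0.00921), with a pseudocount of 0.5 and with the stricter filter.

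Jund was raised at 2 h in KO cells. Its values were 1380, 1262, 1287 and 1386 normalised counts, above every WT value of that time (655 to 986) and above every library of the 15 other groups. The log2 change against WT was 0.75 ± 0.14 (1.68-fold, adjusted p = 0.000217, limma), and it was called under all other settings and without each library. In TKO cells at 2 h Jund stood at 1091, 961, 1014 and 967, which overlapped WT. That change of 0.35 ± 0.14 (adjusted p = 0.0449, limma) lost its call under 6 other settings and without 7 of the 8 libraries, all but WT library 3. In DKO cells at 2 h Jund was 883 ± 87.0 and not called.

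Fos was lower at 2 h in TKO cells, the phase of its decay. It stood at 104, 125, 61.2 and 98.3 normalised counts, under the lowest WT value of 139, and the log2 change was -0.83 ± 0.29 (adjusted p = 0.0201, limma). The call was lost without WT library 3 (-0.73, adjusted p = 0.0602) or TKO library 3 (-0.62, adjusted p = 0.117). Jun was higher at 4 h in TKO cells, at 255, 245, 383 and 269 normalised counts beside 166, 126, 149 and 141 in WT. The log2 change was 0.97 ± 0.32 (1.96-fold, adjusted p = 0.0112, limma), beside a median of 0.20 over all genes in that comparison. It was 0.72 with the scaling as deposited, where it was not called (adjusted p = 0.0757), nor was it with upper-quartile scaling.

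Levels of other cell types' markers moved with genotype at every time, and those of some stress genes at 0, 1 and 4 h. The summed level of 6 B cell markers at 0 h was 3215 to 4700 normalised counts in TKO cells and 1034 to 2154 in WT cells. Ighm made up nearly all of it (4016 ± 634 in TKO and 1354 ± 527 in WT cells), while Ms4a1 was at 0.54 ± 0.63 in TKO cells. Of the 4 B cell markers tested, Ighm (1.62 ± 0.24) and Cd79b (2.37 ± 0.47) were called higher. The sum of 5 myeloid markers was 559 to 623 in TKO and 368 to 493 in WT cells, with Ctss called higher and Emr1 lower. Heat shock genes can respond to handling stress, but 9 of the 10 tested also rose at 1 h of restimulation in WT cells. Of these 10 genes, 3 were called higher in TKO than in WT cells at 0 h (Hsph1 by 0.49, Hsp90aa1 by 0.40 and Hsp90ab1 by 0.36 on the log2 scale), and none in DKO or KO cells. In that comparison 37.2% of all genes were called, and the 3 of 10 do not exceed that share. The stress-inducible Hspa1a was at 3.41 ± 1.86 in TKO and 2.31 ± 2.55 in WT cells. In DKO cells at 0 h, Cd79b was higher by 1.43 ± 0.47 (adjusted p = 0.0488, limma).

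At the later times of called member changes, the markers also differed. The B cell sum in TKO cells was 2305 to 3583 at 1 h, 997 to 1939 at 2 h and 600 to 818 at 4 h, above the WT ranges of 907 to 1677, 383 to 881 and 123 to 240. Ighm was higher in TKO than in WT cells by 1.47, 1.60 and 2.39 on the log2 scale at 1, 2 and 4 h, and Cd79b by 2.56, 2.26 and 2.40, while Pax5 was lower at 4 h (-1.61). Ctss was higher by 0.79, 0.78 and 1.60, whereas the myeloid markers Emr1 and Itgam were lower where called. In KO cells at 2 h, where Jund was raised, Ighm was 0.98 and Ctss 0.82 higher and Itgam was lower (-1.29). The CD8 T cell marker Cd8b1 was called higher at 4 h in KO (1.60 ± 0.40, adjusted p = 0.00273, limma) and TKO cells (1.62 ± 0.40, adjusted p = 0.00099, limma), at 191 ± 58.5 and 191 ± 43.9 normalised counts beside 62.4 ± 19.9 in WT. Of 10 heat shock genes, those called in TKO against WT cells were 1 lower at 1 h, none at 2 h and 3 higher at 4 h. Of all genes, 31.5%, 36.5% and 43.7% were called at these times. The part of these markers and stress genes in the changes of Junb, Atf3, Fos, Jund and Jun was not tested.

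The response itself, the change from 0 h in a knockout minus that in WT, was tested as an interaction in limma. Of 24 such comparisons in TKO cells, 4 were called, all lower: Atf3 at 1, 2 and 4 h and Junb at 2 h. Of all genes, 0.781%, 4.58% and 6.62% were called at 1, 2 and 4 h. The Atf3 response of TKO cells was smaller than that of WT cells, with a difference of -4.31 ± 0.71 on the log2 scale at 1 h (adjusted p = 0.000146, limma), -4.58 ± 0.71 at 2 h (adjusted p = 1.85e-05, limma) and -2.98 ± 0.71 at 4 h (adjusted p = 0.00456, limma). Atf3 rose from 27.2 ± 3.6 to 317 ± 73.0 normalised counts within 1 h in TKO cells, and from 4.52 ± 3.12 to 1001 ± 400 in WT cells. The 4 libraries at 0 h enter both the resting level and the response, so these are not separate observations. By limma voom the estimates were -4.37, -4.64 and -3.05 and none was called (adjusted p = 0.261, 0.0799 and 0.361). Without the WT library that had no Atf3 read at 0 h, they were -3.61, -3.88 and -2.28 and called.

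**Figure D4:**
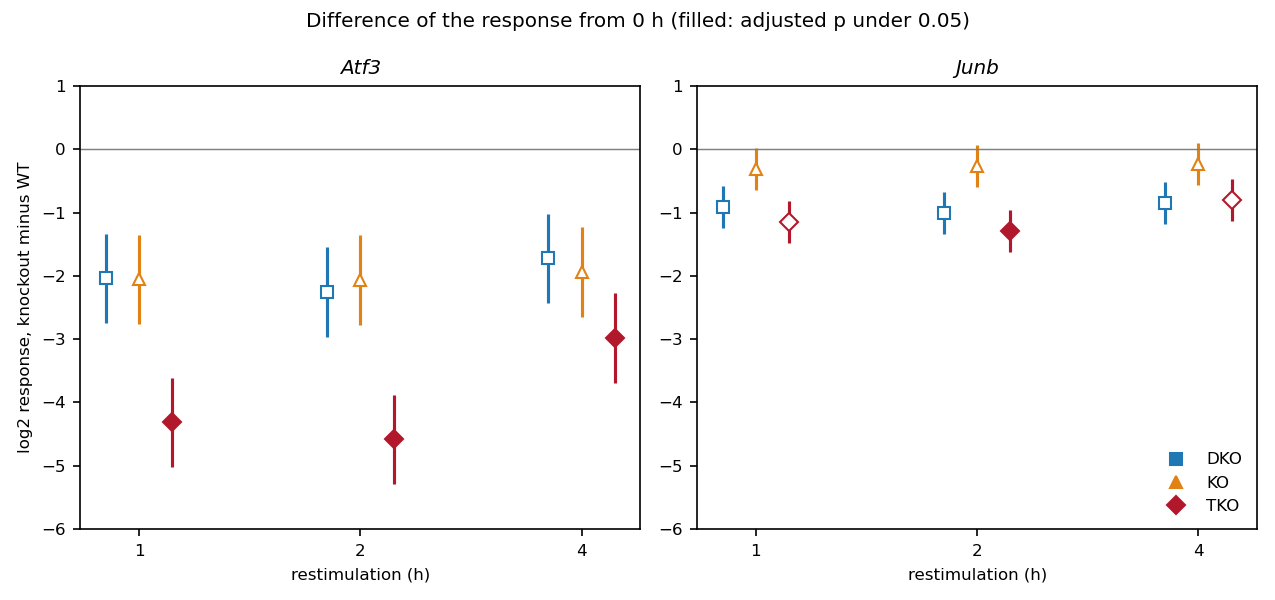
Difference of the log2 response from 0 h, knockout minus WT (y axis), against restimulation time for Atf3 (left) and Junb (right), with bars of 1 SE; filled symbols have an adjusted p under 0.05. The Atf3 differences of TKO cells (-4.31, -4.58 and -2.98) lie below those of DKO and KO cells at each time.

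The Junb response of TKO cells was smaller at 2 h, with a difference of -1.29 ± 0.33 (adjusted p = 0.0125, limma). Its 2 h level (2391 ± 352 normalised counts) overlapped that of WT cells (2676 ± 597), and the 0 h levels differed as given above. The call was lost without TKO library 2 at 0 h (-1.02, adjusted p = 0.0509) and with only the 4 groups fitted (adjusted p = 0.068). In DKO and KO cells, no member's response was called to differ from WT by limma or limma voom in the 24 comparisons of either genotype, with 7 and 4 at an unadjusted p under 0.05. The shares of all genes called were 0.105%, 0.347% and 0.818% in DKO and 0.0248%, 0.204% and 2.19% in KO cells at 1, 2 and 4 h. The Atf3 differences were -2.04, -2.26 and -1.72 in DKO and -2.05, -2.07 and -1.94 in KO cells, with an SE of 0.71. With the scaling as deposited, under which the median response difference of all genes in DKO cells was -0.34 to -0.30, 13 of the 72 response differences were called in place of 4.

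Between the knockouts, 5 of 96 comparisons were called, 4 of them at 0 h. At 0, 1, 2 and 4 h, 14.8%, 4.16%, 6.8% and 12.4% of all genes were called between TKO and DKO cells, 20.2%, 9.67%, 11.6% and 2.59% between TKO and KO cells, and 1.19%, 1.32%, 2.79% and 3.05% between DKO and KO cells. At 0 h, TKO exceeded KO cells in Junb by 0.79 ± 0.23 (adjusted p = 0.0139, limma) and in Atf3 by 1.56 ± 0.50 (adjusted p = 0.0224, limma). The Junb call was lost without KO library 3 or 4 or TKO library 2, with the deposited scaling and with only these groups, and the Atf3 call without KO library 3 or 4 and by limma voom. Jund at 2 h was lower in DKO than in KO cells, with a log2 difference of -0.59 ± 0.14 (adjusted p = 0.00891, limma), with no overlap, and this was called under all settings. The other calls were of Fosl1 at 0 h, higher in TKO than in DKO and KO cells, on 15 reads against 7 and 6, and were lost by limma voom and with only these groups. The log2 change against DKO cells was 1.12 ± 0.34 (adjusted p = 0.0218, limma) and was also lost with a pseudocount of 5 and without DKO library 1 or 4 or TKO library 1 or 2. Without DKO library 1 it was 0.69 (adjusted p = 0.169). The change against KO cells was 1.42 ± 0.34 (adjusted p = 0.0029, limma) and kept its call without each of the 8 libraries. Whether reads of Ccdc85b, on the opposite strand, are among these few Fosl1 reads was not tested.

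The cooperation named in the title was addressed by non-additivity, the TKO change minus the sum of the DKO and KO changes. Of 32 comparisons, 1 was called, Fosl1 at 0 h (1.85 ± 0.49, adjusted p = 0.0486, limma), on the same few reads and lost under 6 of 12 other settings and without any of 9 of the 16 libraries. Of all genes, 0.836%, 0.254%, 0.155% and 0.167% were called at 0, 1, 2 and 4 h. For Atf3 the estimates were 0.11 at 0 h, -0.12 at 1 h and -0.15 at 2 h, each with an SE of 0.71, so the TKO change was within its error of the sum on the log2 scale. Departures of about the size of that SE were not detectable. For Junb at 0 h the estimate was -0.15 ± 0.33. For Jund at 2 h it was -0.55 ± 0.20, with the sum of both single changes above the change in TKO cells, and not called.

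Over all 16 groups, time ordered the levels more than genotype. For Fos, the 4 groups of 1 h came first, from DKO (4211 ± 1229 normalised counts) to WT (3214 ± 808), followed by those of 2 h, from WT (169 ± 28.4) to TKO (97.0 ± 26.4), then 0 h and 4 h. Of its 15 neighbouring pairs in this order, 2 were separated in all libraries, between 1 and 2 h and between WT and DKO at 2 h. Fosb had the same order of times, with 2 separated pairs. For Fosl1 the order was 2, 4, 1 and 0 h, again with 2 separated pairs. Fosl2, Junb, Jund and Atf3 had 1 each and Jun had none. The separated pair of Junb lay between TKO at 2 h (2391 ± 352) and TKO at 4 h (832 ± 79.5), and that of Jund lay between KO at 2 h (1329 ± 63.7) and TKO at 2 h (1008 ± 60.2). For Atf3, TKO at 1 and 2 h (317 ± 73.0 and 178 ± 103) ranked below every other group of those times, and WT at 0 h (4.52 ± 3.12) ranked last.

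Across the 16 group means of log2 values, Fos followed Fosb with a Pearson r of 0.97, and Fos and Fosl1 had an r of 0.24. The genes most like each member over these means were described without a test, since all share the same libraries and time course. For Fos they were Klf4 (r = 0.98), Rfx8 and Fosb. For Atf3 they were Junb (0.97), Tfe3 (0.97) and Rnf149 (0.97). They were Kansl1l, Usp38 and Rap1b for Fosb, Slc7a6, Tm9sf4 and Srfbp1 for Fosl1, and Hspa4l, Bach1 and Atp2b1 for Fosl2, all with r of 0.98 or 0.99. For Jun they were Irak2, Golph3 and Tnfaip8 (0.96 each), for Junb Aftph, Ptpn22 and Zswim4 (0.99, 0.99 and 0.98), and for Jund Cd2, Cd53 and Gramd1a (0.95, 0.94 and 0.94).

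Other leucine zipper genes include several that pair with FOS or JUN proteins. Of 23 tested, 14 were called higher and none lower at 1 h in WT cells by limma, where 31.1% of all genes were called in either direction. They were led by Maff (4.78 ± 0.41 on the log2 scale), Bach1 (2.07) and Crem (1.63). The median change was 0.59, beside -0.10 over all genes. Between TKO and WT cells at 0 h, 11 were higher and none lower, beside 37.2% of all genes called and 2 of the 8 members, with a median of 0.47 beside 0.07 over all genes. The leading ones were Batf3 (2.66 ± 0.53, adjusted p = 0.000101, limma), Batf (2.61 ± 0.16, adjusted p = 1.2e-19, limma) and Maf (2.44 ± 0.65, adjusted p = 0.00285, limma). BATF proteins bind DNA with JUNB. Batf stood at 183 ± 22.9 normalised counts in WT and 1135 ± 278 in TKO cells at 0 h, and it was higher also in DKO (1.44 ± 0.16) and KO cells (1.28 ± 0.16). The Batf response of TKO cells at 2 h was smaller than that of WT cells (-1.22 ± 0.22, adjusted p = 0.000248, limma).

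Of 29 kinases and factors between the receptor and AP-1, 14 were higher and 2 lower at 1 h in WT cells. In that comparison 31.1% of all genes were called in either direction. Map2k3, a kinase of p38, rose by 3.64 ± 0.18 and Bcl10 by 2.12 ± 0.24 on the log2 scale. In TKO against WT cells at 0 h, 6 were higher and 2 lower, among them Malt1 (1.22 ± 0.22) and Map2k3 (1.02 ± 0.18). These 8 of 29 are below the 37.2% of all genes called in that comparison. Of 14 genes of FOS and JUN turnover, 9 were higher and 2 lower at 1 h in WT cells, again beside 31.1%. Zfp36l1 and Zfp36, whose proteins bind AU-rich elements, rose by 3.32 ± 0.15 and 3.25 ± 0.27, and Zfp36 was 1.25 ± 0.27 higher in TKO than in WT cells at 2 h (adjusted p = 0.000235, limma). In that comparison, where 36.5% of all genes were called, 2 others of the 14 were lower. They were Hnrnpd, which also encodes a binder of AU-rich elements (-0.36 ± 0.10, adjusted p = 0.00355, limma), and Fbxw7 (-0.34 ± 0.13, adjusted p = 0.0333, limma). Of 10 heat shock genes, 9 were higher at 1 h in WT cells, led by Hspa1b (3.04 ± 0.41), beside the same 31.1%.

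Of 13 tested genes known as AP-1 targets, 10 were higher in WT cells at 1 h, 13 at 2 h and 11 at 4 h, and none was called lower, beside 31.1%, 52.0% and 51.7% of all genes called in either direction. Il2, Csf2 and Ifng led at 1 h with log2 changes of 9.11 ± 0.52, 8.13 ± 0.59 and 7.69 ± 0.57. In TKO against WT cells at 2 h, 5 were lower and none higher, with a median of -0.64 beside 0.03 over all genes. These 5 of 13 are near the 36.5% of all genes called. At 1 h, 1 was higher and 4 were lower, and at 4 h, 2 were higher and 3 lower, where 31.5% and 43.7% of all genes were called. The lower genes at 2 h were led by Fasl, the ligand of the death receptor Fas (-4.28 ± 0.38, adjusted p = 5.37e-13, limma), Csf2 (-2.96 ± 0.59, adjusted p = 0.000106, limma) and Tnf (-1.94 ± 0.34, adjusted p = 1.5e-05, limma). At 0 h, 4 were higher, among them Cd40lg (2.39 ± 0.26), Hmox1 (1.22 ± 0.32) and Cd69 (0.90 ± 0.20), and Fasl was lower (-2.36 ± 0.38), again 5 of 13 beside 37.2% of all genes. The response of TKO cells at 2 h was smaller for 6 and larger for none, beside 4.58% of all genes called. Whether these follow from the changes of the family was not tested.

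In the authors' deposited table, 9 of the 96 member comparisons against WT had a false discovery rate under 0.05, and 7 of these were among the 9 called here, all in the same direction. The authors' deposited table had Junb in DKO cells at 0 h at 0.098 and Jund in TKO cells at 2 h at 0.088, both called here. It had Jun in TKO cells at 1 h at 0.042 and Atf3 in KO cells at 4 h at 0.017, neither called here. Between the knockouts, the authors' deposited table had 2 under 0.05, Jund between DKO and KO cells at 2 h and Atf3 between TKO and KO cells at 0 h, both among the 5 called here. In WT cells over time, the authors' deposited table had 28 of 40 under 0.05, of which 27 were among the 29 called here.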

How the data were processed

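Total RNA of 64 cell samples was sequenced. Per the labels' protocols, RNA was taken with Trizol and libraries were made with a NuGEN kit. The build was GRCm38, per the submitters' processing notes. No source used here gives the aligner, counter, annotation or strand setting. Values came in a single table. Per the file headers, the authors listed 4 normalised read counts for each group without replicate numbers, so a library is named by its place in the list. The deposited table also gives the authors' log2 fold changes and false discovery rates (adjusted p-values). Low values were whole multiples of 1 read in every library (100% within 0.1 read), which gave the reads.

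Library values were rescaled with TMM factors (trims of 30 and 5 percent). Genes were kept with at least 10 reads at the median depth in at least 4 libraries and 15 reads in all. Limma 3.58.1 (R 4.3.3) was fitted to log2(value + 1) with 1 mean per group (48 residual degrees of freedom, trended and robust moderation, 51 contrasts). The fold changes understate changes of low genes. The steps were tested on simulated data. Alternatives covered scaling, pseudocount, filter, limma voom, the groups fitted, a block and leaving out each library. From each gene list, up to 3 called genes per direction with the largest change in a contrast were named. Likeness names the 3 genes of highest Pearson r, and Ighm, Ms4a1 and Hspa1a were named after their values were seen. The members and the lists were chosen with earlier results of these data known. Sequences are from RefSeq (GRCm38.p6) and GENCODE, and annotation from GENCODE on GRCm38.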

Additional observations from a re-analysis of the deposited data

Results flagged for a closer look

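Within the 128 groups of 4 libraries formed by 8 members and 16 groups, 8 held a library whose gap to its nearest neighbour was above Dixon's 95% critical ratio for 4 values. By chance about 5% of such groups hold one. At 0 h in DKO cells, library 3 stood apart for Junb (972, the others 402 to 449 normalised counts) and for Atf3 (26.5, the others 6.37 to 9.72). At 2 h, Fosl2 was 2183 in WT library 4 (others 1185 to 1274) and 3168 in DKO library 2 (others 1335 to 1642), Fosb was 260 in KO library 4 (others 113 to 136) and Fos was 113 in DKO library 3 (others 133 to 135). At 4 h, Jun was 383 in TKO library 3 (others 245 to 269) and Atf3 was 39.5 in KO library 4 (others 21.2 to 24.0).

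By the interaction test, the response of TKO cells differed from that of WT cells for Atf3 at 1, 2 and 4 h (-4.31, -4.58 and -2.98 on the log2 scale) and for Junb at 2 h (-1.29).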

How the results depend on the processing

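The 29 calls over time in WT cells, the 56 over time in knockouts and the 9 against WT stayed within 1.5 times under every setting, and no called change reversed. Calls between knockouts went from 5 to 2 by limma voom and to 3 with only the groups compared. Response differences went from 4 to 13 with the deposited scaling and to 1 by limma voom. The non-additivity count went from 1 to 2 with the deposited scaling and to 0 with upper-quartile or total-read scaling, a pseudocount of 5, no filter, limma voom or only the groups compared. The causes were not tested. Leaving out each library gave 28 to 29 calls over time in WT, 54 to 58 in knockouts, 7 to 10 against WT, 3 to 7 between knockouts, 3 to 5 response differences and 0 to 1 for non-additivity.

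No paired analysis was possible because the lists carry no replicate numbers. With the place in the list as a replicate block the 6 counts were 28, 55, 9, 5, 4 and 1. Libraries of the same place in different groups had a mean correlation of deviations of 0.02, with single pairs from -0.49 to 0.70. For different places the mean was -0.002, with single pairs from -0.63 to 0.75. Some libraries of different groups thus deviated together, which the fit does not model, and the reason was not tested. Without the 2 libraries highest in Junb at 0 h in DKO and TKO cells, a setting chosen after seeing the data, the counts were 29, 57, 8, 5, 4 and 1. The edgeR and DESeq2 alternatives were not run, because the deposited columns are lists of normalised values. Over all genes, fitting only the groups compared took the 1228 calls between DKO and WT at 0 h to 385, the 739 of the TKO response at 2 h to 276 and the 135 of non-additivity at 0 h to 20. With the deposited scaling, that response at 1 h went from 126 to 2263 calls, of which 2.2% were higher (21.4% with TMM), and non-additivity at 0 h went to 1803. Total-read scaling took the 5339 calls between KO and WT at 4 h to 2755. In all, 28 of 51 comparisons had a count that moved by over 1.5 times. The 216 calls between KO and WT at 0 h became 2470 with the deposited scaling, of which 99.1% were higher (87.5% with TMM). Those between DKO and WT at 0 h went from 1228 to 4166. At 0 h, 8 Fosl1 and 16 Atf3 reads in WT cells limit the precision of their changes.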

Other observations

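In each of the 4 genotypes at 0 h, 1 library was the highest for Fos, Fosl2, Jun and Junb and the lowest for Jund. These were WT library 4 (Fosl2 356, Junb 363 and Jund 454 normalised counts), DKO library 3 (614, 972 and 525), KO library 2 (512, 540 and 636) and TKO library 2 (751, 1051 and 607). For Jun, the value of the WT library (163.8) was next to that of library 1 (163.6). At the other times, 1 library was highest for these 4 genes in 0, 1 and 1 of 4 genotypes at 1, 2 and 4 h. The summed level of 10 heat shock genes in these libraries was the lowest of the group in WT (16767) and KO cells (18500), and the highest in DKO cells (20691), and their depth was 6029477 to 7683886 reads. The pattern was noticed in the data and has no test.

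In TKO cells at 0 h, library 4 was lowest for Fos (32.4), Fosl2 (44.1), Jun (75.2) and Junb (404) and highest for Fosb (28.5) and Jund (863).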
